A study of Mus musculus with 16 samples.

Results

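The 9 genes described here encode matrix enzymes of the citric acid cycle: Cs, Idh3a, Idh3b, Idh3g, Ogdh, Sucla2, Suclg1, Fh1 and Mdh2. They were taken by gene symbol from tables of 33641 symbols, and all 9 were found in each of the 16 libraries. The libraries came from the left ventricle and from subcutaneous white adipose tissue (scWAT) of C57BL/6J mice, all 28 weeks old. Mice were either wild-type or labelled Adipo-HuR KO, a deletion of the RNA-binding protein HuR (gene Elavl1) meant for adipocytes alone; the Cre line and the targeted allele were not given in the sources used here. The heart groups were 4 wild-type mice (A5, A7, A8 and A14) and 4 labelled knockout (A25, A29, A30 and A31). The scWAT groups were 5 wild-type mice (the same 4 and A12) and 3 labelled knockout (A24, A26 and A30). Values are TPM, transcript levels scaled for transcript length and to the same total in every library, so depth is unknown.

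The citric acid cycle oxidises the acetyl group of acetyl-CoA to carbon dioxide in the mitochondrial matrix and passes the electrons to the respiratory chain. Citrate synthase (Cs) joins acetyl-CoA to oxaloacetate, NAD-dependent isocitrate dehydrogenase (Idh3a, Idh3b, Idh3g) and the oxoglutarate dehydrogenase complex (Ogdh, its first subunit) release carbon dioxide, succinyl-CoA synthetase (Sucla2, Suclg1) makes ATP or GTP, and fumarase (Fh1) and malate dehydrogenase (Mdh2) lead back to oxaloacetate. Heart muscle runs the cycle at a high rate to feed oxidative phosphorylation, whereas white fat also exports its citrate to the cytosol as a source of carbon for fatty acids.

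RefSeq's table of start sites (GRCm38.p6) held 8 of the 9 genes; Idh3a was missing. The 3 windows shown hold the 250 bases upstream of an annotated start, 5′ to 3′ on the gene's strand, of Ogdh and Cs, the genes that varied most between hearts, and Fh1, which varied least. Capitals mark the CCAAT box (CCAAT or ATTGG), the GC box (GGGCGG or CCGCCC) and the CREB site (TGACGTCA). The windows are chr11:6291347-6291596 (plus strand, Ogdh), chr10:128337477-128337726 (plus strand, Cs) and chr1:175625636-175625885 (minus strand, Fh1).
Ogdh: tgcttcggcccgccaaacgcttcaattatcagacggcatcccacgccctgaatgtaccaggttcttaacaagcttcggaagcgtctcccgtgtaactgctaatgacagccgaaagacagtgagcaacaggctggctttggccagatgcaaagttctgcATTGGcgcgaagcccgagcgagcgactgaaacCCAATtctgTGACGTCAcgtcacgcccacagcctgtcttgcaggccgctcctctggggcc
Cs: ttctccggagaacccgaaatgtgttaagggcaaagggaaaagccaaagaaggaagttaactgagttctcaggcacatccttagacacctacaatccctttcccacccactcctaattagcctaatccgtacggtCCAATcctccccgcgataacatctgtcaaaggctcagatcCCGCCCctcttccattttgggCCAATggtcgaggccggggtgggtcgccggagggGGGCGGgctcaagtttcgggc
Fh1: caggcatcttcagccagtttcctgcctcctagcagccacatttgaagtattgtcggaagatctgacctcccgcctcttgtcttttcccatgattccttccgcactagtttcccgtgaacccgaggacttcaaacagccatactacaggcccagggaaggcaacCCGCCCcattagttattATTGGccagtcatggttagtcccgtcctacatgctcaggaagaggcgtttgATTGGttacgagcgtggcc
Each of the 3 windows holds a pair of CCAAT boxes, and no marked motifs overlap. Over all annotated starts of each gene (13 windows, 6 of them of Ogdh), both strands searched, CCAAT boxes lay upstream of 4 of the 8 genes, and 33.9% of 32851 RefSeq windows of the same length hold one. The GC box was found upstream of 5 of the 8 genes (32.7% of all windows), for Ogdh only at later starts. The CREB site lay upstream of Ogdh and Mdh2 (1.55% of all windows). A gene counts if any of its windows holds the motif, whereas the shares are of single windows, so the 2 are not on the same footing. The NRF1 core GCGCATGCG was found at later starts of Ogdh (1.45% of all windows) and the ETS site CCGGAAG upstream of Idh3g (6.91% of all windows). Of the 8 genes, Mdh2 had the palindrome that joins TCTCG to its reverse complement CGAGA, with 3 copies in its window, and 0.390% of all windows hold it. AAGGTCA, a site of estrogen-related receptors, was found upstream of 0 of the 8 genes (4.08% of all windows), and these matches describe the letters of the windows, not binding.

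Some libraries stood apart before any cycle gene was considered. Elavl1 was not lower in scWAT labelled knockout (36.2 to 42.9 TPM) than in wild-type scWAT (19.0 to 34.5 TPM), so groups are named here by their labels; a gene-level TPM does not show which exons are present. Heart A29, labelled knockout, had 52.7 TPM of Nppa, which encodes atrial natriuretic peptide, where the other 3 hearts labelled knockout had 5021 to 6980 TPM and the 4 wild-type hearts 108 to 313 TPM. Mitochondrially encoded transcripts took 51.9% to 60.6% of TPM in wild-type hearts (highest in A5) and 43.4% to 55.7% in hearts labelled knockout (highest in A29), but 6.14% to 14.4% in scWAT. As defining markers, the 10 cardiomyocyte genes summed to at least 19073 TPM in every heart and at most 122 TPM in any scWAT library, and the 8 white adipocyte genes to at least 39168 TPM in every scWAT library. In whole tissue, fewer cells of a type and less RNA per cell cannot be told apart.

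In wild-type heart, Mdh2 was the most abundant of the 9 transcripts at 651 TPM ± 139 (SD, n = 4), followed by Ogdh at 507 ± 141 and Cs at 399 ± 102. Idh3b (309 ± 86.0), Sucla2 (297 ± 54.2), Idh3g (260 ± 56.6) and Idh3a (229 ± 13.4) lay in the middle, and Suclg1 (191 ± 24.8) and Fh1 (190 ± 28.5) were lowest, all in TPM. Mdh2 exceeded Ogdh, and Ogdh exceeded Cs, in 4 of 4 wild-type hearts, although the ranges of every pair of neighbours in this order overlapped. In wild-type scWAT the order began with Mdh2 (403 TPM ± 58.5, SD, n = 5) and Cs (328 ± 88.1), Ogdh came sixth at 194 ± 18.7, and Fh1 was again lowest at 133 ± 26.2. There too every pair of neighbours overlapped in range. The 9 transcripts together made up 0.528% to 0.728% of the TPM not mitochondrially encoded in wild-type hearts and 0.198% to 0.252% in wild-type scWAT.

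**Figure D1:**
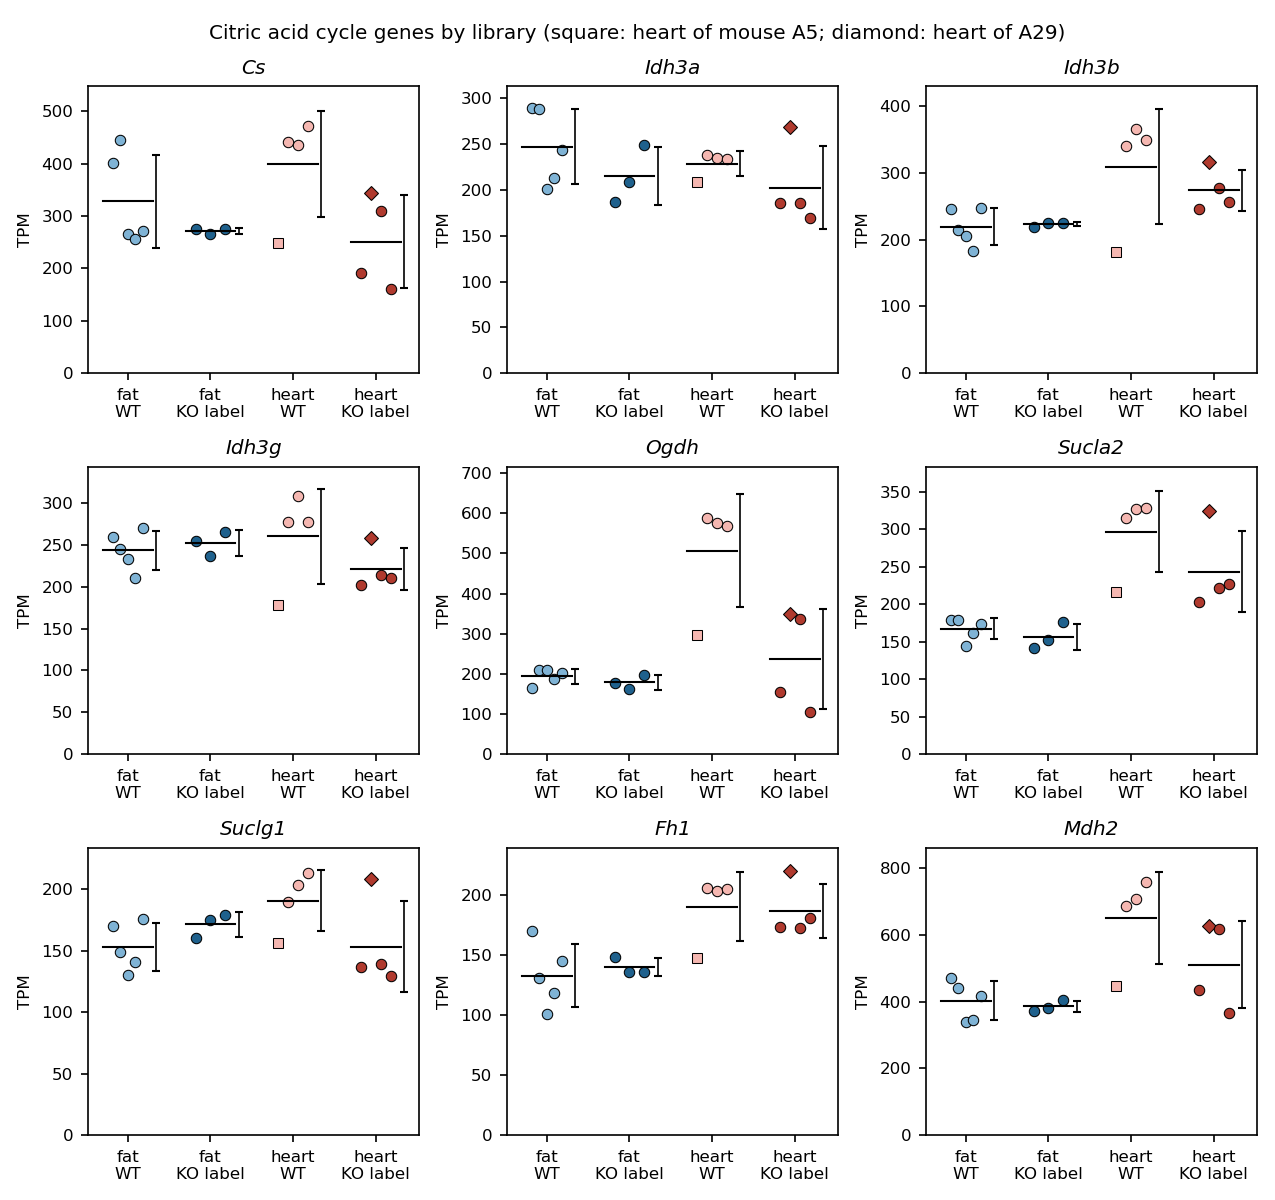
TPM of the 9 citric acid cycle genes (vertical axes, each from 0) in the 4 groups: scWAT (fat) and heart, wild-type (WT) and labelled knockout (KO label). Each point is 1 mouse, horizontal lines are group means and error bars 1 SD; Ogdh runs from 106 to 350 TPM in hearts labelled knockout against 297 to 589 TPM in wild-type hearts, while its fat values stay between 161 and 209 TPM.

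Between the tissues of wild-type mice, 4 of the 9 genes were higher in heart on the TPM scale and 0 were lower (limma on log2(TPM + 1), Benjamini-Hochberg adjusted p under 0.05 over 13093 genes, of which 8.12% were called higher and 78.5% lower). Ogdh had 297, 589, 575 and 568 TPM in the hearts of A5, A7, A8 and A14, and 165 to 209 TPM in the 5 scWAT libraries. The Ogdh ranges did not overlap, and its log2 fold change was 1.33 (SE 0.20, adjusted p = 4.86e-05). Sucla2, the ATP-forming succinyl-CoA synthetase subunit, ranged from 216 to 328 TPM in heart and from 145 to 179 TPM in scWAT, again without overlap (log2 fold change 0.80, SE 0.16, adjusted p = 0.000421). Mdh2 (0.67, SE 0.18, adjusted p = 0.00378) and Fh1 (0.52, SE 0.18, adjusted p = 0.0147) also passed on the log2 scale, with overlapping ranges, so 2 of 9 were apart in the higher direction (6.74% of all tested genes). With the mouse as a block, over the 4 mice that gave both tissues, 3 of 9 passed (7.85% of all tested genes were higher) and Fh1 did not (0.49, SE 0.22, adjusted p = 0.0573). Idh3g was closest to equal between tissues, with 178 to 309 TPM in heart and 210 to 271 TPM in scWAT (log2 fold change 0.07, SE 0.17, 95% interval -0.31 to 0.45), and Idh3a was the member with a negative fold change (-0.10, SE 0.15, 95% interval -0.43 to 0.23).

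The scale decides how many of these genes count as higher in heart. The median log2 fold change over all tested genes was -1.27, and relative to it all 9 genes were higher in heart, by 1.17 (Idh3a) to 2.60 (Ogdh). After median-of-ratios scaling 9 of 9 were called higher (33.1% of all tested genes), as they were after quantile normalization (32.1%) and after removal of mitochondrially encoded genes (20% of all tested genes). All 8 heart library names carry a sequencing run and lane and no scWAT name does, so the tissue and any difference in sequencing cannot be told apart.

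The rest of the cycle lay on the same side: 9 of 10 other cycle genes were called higher in wild-type heart as deposited, with a median log2 fold change of 0.64, where 8.12% of all tested genes were higher and the all-gene median was -1.27. Idh2, the NADP-dependent isocitrate dehydrogenase of mitochondria, had the largest log2 difference among those abundant in both tissues (526 to 911 TPM against 169 to 232 TPM; 1.96, SE 0.19, adjusted p = 7.08e-07). Ogdhl, a paralog of Ogdh, had 18.3 to 60.4 TPM in heart and 0.209 to 2.51 TPM in scWAT. Suclg2, the GTP-forming partner of Suclg1, did not pass (0.30, SE 0.18, adjusted p = 0.124). Genes for cytosolic counterparts and for export split instead, with 4 of 10 higher and 6 of 10 lower in heart (8.12% and 78.5% of all tested genes). The mitochondrial citrate carrier Slc25a1 had 2.12 to 3.23 TPM in wild-type heart and 302 to 784 TPM in scWAT, whereas Got1, the cytosolic aspartate aminotransferase, had 277 to 372 TPM in heart and 6.20 to 11.0 TPM in scWAT. Of 13 genes for pyruvate entry, 5 were higher and 2 lower (8.12% and 78.5% of all tested genes), the latter being Pcx, whose product makes oxaloacetate from pyruvate (5.21 to 10.6 TPM in heart, 325 to 725 TPM in scWAT), and the pyruvate dehydrogenase kinase Pdk3. The 4 assembly factors of succinate dehydrogenase (Sdhaf1 to Sdhaf4) were all called lower on the TPM scale, but all 4 lay above the all-gene median, by 0.38 to 0.80 on the log2 scale.

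In hearts labelled knockout, all 9 cycle transcripts had a lower group mean than in wild-type hearts, but 0 of 9 passed the test with all 8 libraries (of 11981 tested genes, 0.0501% were called higher and 0% lower). Ogdh and Cs showed the largest differences and Fh1 the smallest. The median log2 fold change was -0.29 over the 9 genes and 0.26 over all tested genes, so the 9 genes had a median of -0.54 relative to all genes. A negative fold change was found for 9 of 9 members and for 27.6% of all tested genes, and a nominal p under 0.05 in the lower direction for 2 of 9 (Ogdh and Cs) and for 3.66% of all tested genes. For 0 of 9 members did the lower group lie apart from the wild-type hearts (0.634% of all tested genes).

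Ogdh, the thiamine-dependent first subunit of the oxoglutarate dehydrogenase complex, stood at 156, 350, 336 and 106 TPM in A25, A29, A30 and A31, against 297, 589, 575 and 568 TPM in the wild-type hearts A5, A7, A8 and A14. A25 and A31 were below every wild-type heart, while A29 and A30 lay above the low wild-type heart A5. The Ogdh mean of the hearts labelled knockout was 0.467 of the wild-type mean, with a log2 fold change of -1.22 (SE 0.38, adjusted p = 0.142). Cs had 191, 343, 309 and 162 TPM in A25, A29, A30 and A31 and 248, 441, 435 and 471 TPM in A5, A7, A8 and A14. Its pattern matched that of Ogdh, with A25 and A31 lowest and A5 within the range of the hearts labelled knockout (fold change on the log2 scale -0.69, SE 0.28, adjusted p = 0.172). Mdh2 had 434, 626, 619 and 367 TPM against 447, 689, 707 and 760 TPM in the same order of hearts, with overlapping groups (-0.36, SE 0.23, adjusted p = 0.346).

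Subunits of isocitrate dehydrogenase differed less. Idh3a, the catalytic subunit, had 186, 269, 186 and 170 TPM in A25, A29, A30 and A31 and 209, 238, 235 and 234 TPM in A5, A7, A8 and A14. A29 was the highest of all 8 hearts, and the other 3 hearts labelled knockout were below every wild-type heart (log2 fold change -0.20, SE 0.18, adjusted p = 0.498). The regulatory subunits Idh3b (245 to 316 TPM against 181 to 366 TPM) and Idh3g (203 to 258 TPM against 178 to 309 TPM) had their lowest value in the wild-type heart A5. Their log2 fold changes were -0.13 (SE 0.23) and -0.21 (SE 0.20).

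At the step of succinyl-CoA synthetase, Suclg1, the subunit shared by the ATP- and GTP-forming enzymes, had 136, 208, 139 and 130 TPM in A25, A29, A30 and A31 against 156, 190, 203 and 213 TPM in A5, A7, A8 and A14. Apart from A29, the hearts labelled knockout were below every wild-type heart (log2 fold change -0.33, SE 0.19, adjusted p = 0.304). Sucla2 ranged from 202 to 324 TPM against 216 to 328 TPM (-0.29, SE 0.20, adjusted p = 0.390). Fh1 had 173, 219, 172 and 181 TPM against 147, 205, 203 and 205 TPM. A29 was its highest heart and A5 its lowest, and the fold change of Fh1 was close to 0 (-0.02, SE 0.17, adjusted p = 0.941).

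Leaving out 1 library changed these calls. Without A29, 4 of 9 genes fell in the 3 remaining hearts labelled knockout (of 12081 tested genes, 4.16% fell and 34.8% rose, and the all-gene median was 0.39). These were Ogdh (log2 fold change -1.46, SE 0.37, adjusted p = 0.0122), Suclg1 (-0.48, SE 0.14, adjusted p = 0.0204), Cs (-0.87, SE 0.27, adjusted p = 0.0290) and Idh3a (-0.34, SE 0.12, adjusted p = 0.0428). Idh3a and Suclg1 then lay apart from the wild-type hearts (3.65% of all tested genes did so in the lower direction). Without the wild-type heart A5, 0 of 9 passed (of all tested genes, 0.00826% were called lower and 0.0248% higher), but Cs, Idh3b, Idh3g, Ogdh and Mdh2, 5 of 9, were below all wild-type hearts in every heart labelled knockout (6.43% of all tested genes). Array weights, which give outlying libraries less influence, called 9 of 9 lower (22.7% of all tested genes). Among the hearts labelled knockout that fit rested mostly on A25 (weight 7.26), followed by A31 (1.72), A30 (0.326) and A29 (0.103), and among the wild-type hearts A5 had 0.173 and the others 1.84 to 3.19.

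**Figure D2:**
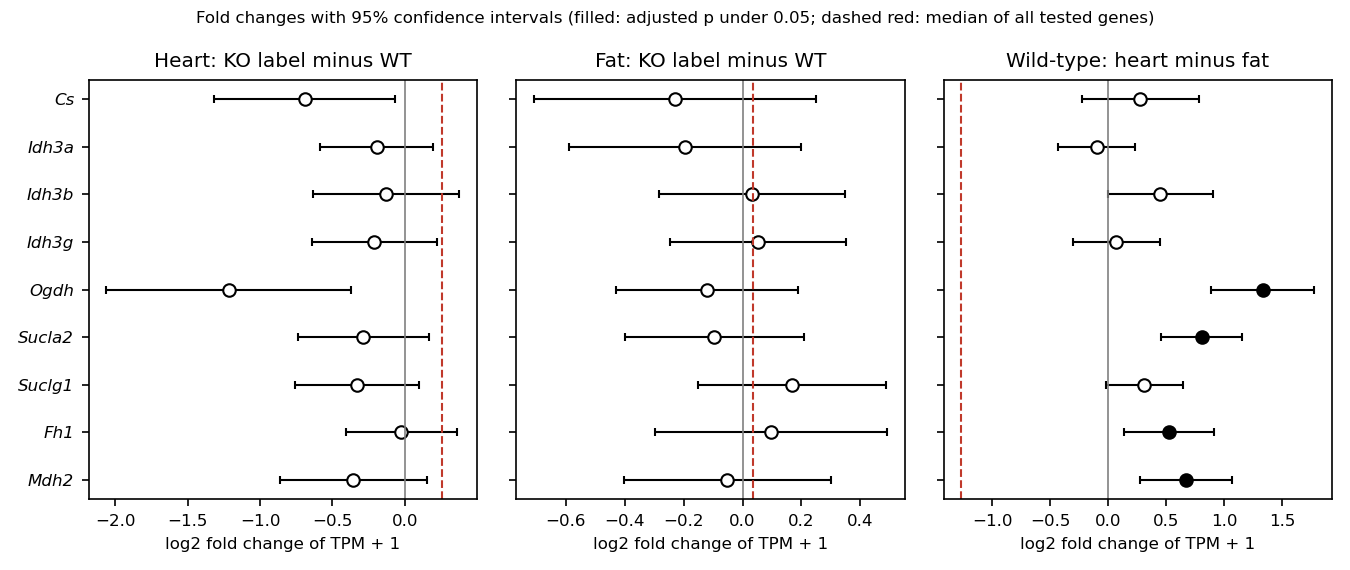
Log2 fold change of TPM + 1 (horizontal axis) for the 9 genes in heart and in scWAT (labelled knockout minus wild-type) and between tissues of wild-type mice (heart minus scWAT), with 95% confidence intervals from limma. Filled points passed an adjusted p of 0.05 and the dashed line is the median of all tested genes: in heart all 9 points lie left of it, down to -1.22 for Ogdh, and in the tissue comparison all 9 lie right of it.

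The low values of heart A5 depended on the scaling. Median-of-ratios scaling, which sets the typical gene equal across libraries, gave A5 a size factor of 0.611, A29 0.758 and the other hearts 0.959 to 1.54. On that scale Ogdh had 486 units in A5 and 527 to 592 in the other wild-type hearts, 137, 218 and 89.9 in A25, A30 and A31, and 462 in A29. Cs stood at 407 in A5 and 399 to 491 in the other wild-type hearts, 168, 201 and 137 in A25, A30 and A31, and 453 in A29. Fh1, the gene with the smallest difference in TPM, had 186 to 241 in wild-type hearts, 152, 112 and 153 in A25, A30 and A31, and 290 in A29. For each of the 9 genes, A25, A30 and A31 were below all 4 wild-type hearts, and A29 was within or above the wild-type range, except for Ogdh, where it was below it. The share of all tested genes for which A25, A30 and A31 lay below the wild-type hearts on this scale is not given here. With both A29 left out and this scaling, chosen after the data had been seen, 9 of 9 passed as lower (log2 fold changes -1.97 for Ogdh to -0.61 for Fh1; adjusted p = 0.000261 to 0.0156), where 20.8% of all tested genes were lower and 19.5% higher.

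**Figure D3:**
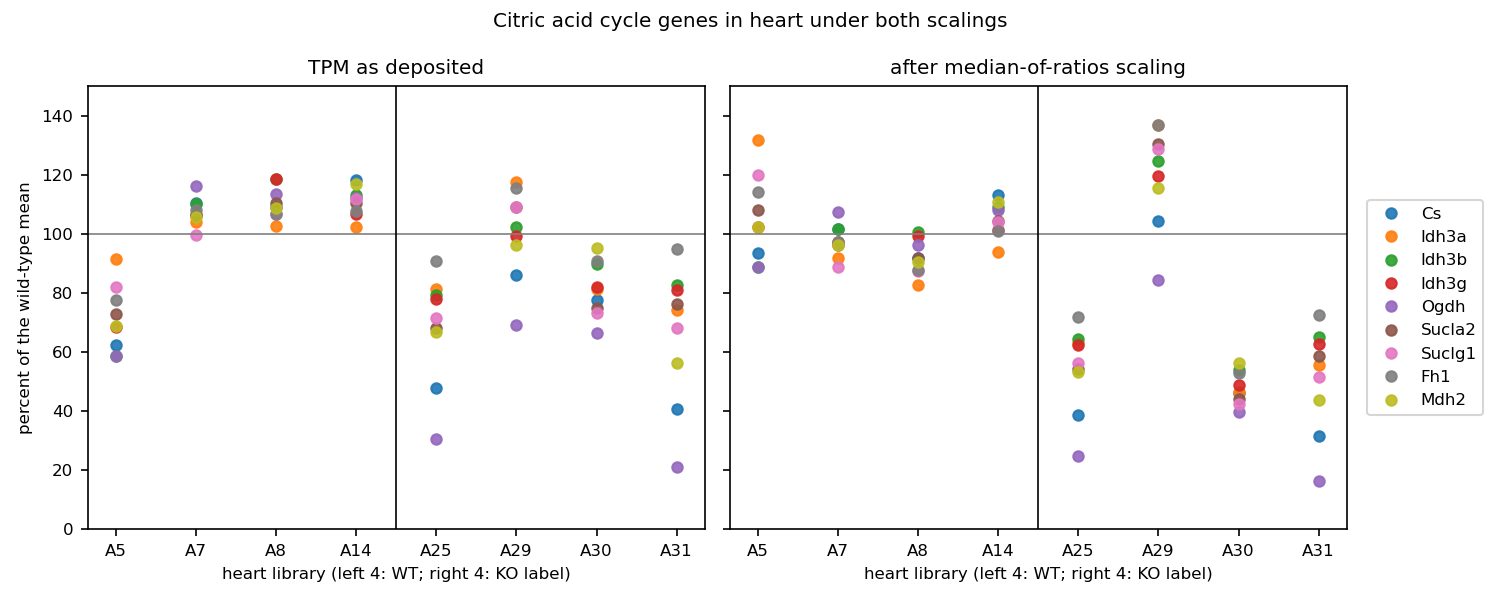
Level of each of the 9 genes in each heart as a percent of its wild-type mean (vertical axis), from the TPM as deposited (left) and after median-of-ratios scaling (right). On the right, A25, A30 and A31 lie below the wild-type hearts for all 9 genes, and A29 lies with or above them except for Ogdh. The share of all tested genes that lie apart in this way is not given here.

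Values for other cell types moved with the same libraries. The 7 fibroblast genes summed to 203 to 319 TPM in wild-type hearts, 248 TPM in A29, and 2184 to 3523 TPM in A25, A30 and A31, and the 6 macrophage genes to 76.5 to 121 TPM, 69.6 TPM and 506 to 566 TPM. The 10 cardiomyocyte genes summed to 25571 to 35882 TPM in wild-type hearts, 32075 TPM in A29 and 19073 to 26117 TPM in A25, A30 and A31. With all libraries 0 of the 10 passed the test (0% of all tested genes were called lower). All 10 had negative fold changes (27.6% of all tested genes did), with a median of -0.61 relative to all genes. All genes of these 3 lists were at 1 TPM or more in all 8 hearts, and their part in the values of the cycle genes was not tested. The fold change in heart was also related to transcript length across 7565 genes (Pearson r = -0.28 with log2 length, a description across genes that share libraries). By the longest protein-coding transcript in GENCODE vM21, Ogdh (4127 bases) and Cs (2926 bases) were longest of the 9 genes and Idh3g (1331 bases) shortest. Their log2 fold changes were -1.22, -0.69 and -0.21, beside -0.02 for Fh1 (2636 bases) and -0.36 for Mdh2 (1456 bases). After correction of each library for transcript length and GC content, also chosen after the data had been seen, the median of the 9 genes was -0.72 and 0 of 9 passed. The share of all tested genes called after this correction is not given here, and without it 0% were called lower. That correction also removes each library's overall shift. Its median therefore stands beside the uncorrected median relative to all genes, -0.54, and not beside -0.29.

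Other genes of the cycle gave 0 of 10 calls with all hearts (median log2 fold change -0.41; 0% of all tested genes were called lower) and 6 of 10 lower without A29 (4.16% of all tested genes). Dlst, the second subunit of the oxoglutarate dehydrogenase complex, had 79.2, 198, 97.8 and 66.1 TPM in A25, A29, A30 and A31 and 158 to 213 TPM in wild-type hearts. Without A29 it fell further than any gene of the cycle except Ogdh and Ogdhl (log2 fold change -1.28, SE 0.17, adjusted p = 0.000398). Ogdhl had 1.01, 22.6, 3.43 and 1.00 TPM in the same hearts against 18.3 to 60.4 TPM, and fell without A29 (-3.91, SE 0.41, adjusted p = 0.000113). Idh2 (-1.07, SE 0.22, adjusted p = 0.00418) and the succinate dehydrogenase subunits Sdha and Sdhc also fell. Dld, the subunit that the oxoglutarate and pyruvate complexes share, had 141 to 206 TPM against 155 to 191 TPM and did not pass (without A29 -0.19, SE 0.13, adjusted p = 0.259).

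**Figure D4:**
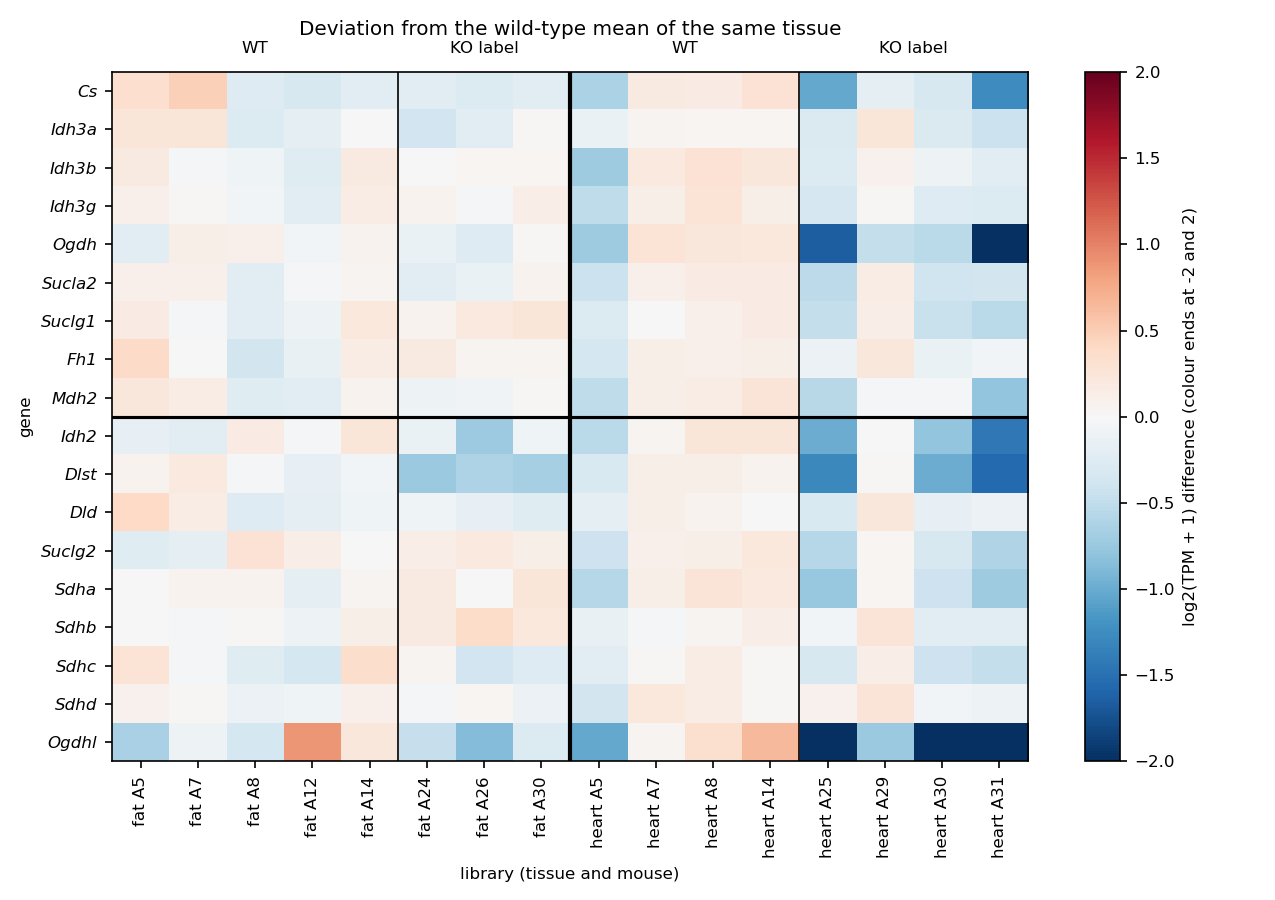
Deviation of log2(TPM + 1) from the wild-type mean of the same tissue for the 9 genes (above the line) and 9 other citric acid cycle genes (below), in all 16 libraries; red is higher and blue lower. The darkest blue cells are those of Ogdhl in hearts A25, A30 and A31 and of Ogdh in A31, the heart A5 column is blue throughout, and Dlst is blue in all 3 fat libraries labelled knockout.

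Around the cycle, heart calls were likewise absent with all libraries: 0 of 13 genes of pyruvate entry, 0 of 10 of the cytosolic and export list, 0 of 4 succinate dehydrogenase assembly factors and 0 of 7 regulators of mitochondrial genes passed. Of all tested genes, 0.0501% were called higher and 0% lower in that fit. Without A29, 4 of 13 genes of pyruvate entry fell and 1 rose, where 4.16% of all tested genes fell and 34.8% rose. Pdk2 (-1.48, SE 0.41, adjusted p = 0.0183) and Pdp2 (-1.57, SE 0.27, adjusted p = 0.00181), a kinase and a phosphatase of pyruvate dehydrogenase, were among those that fell, and the kinase Pdk3 rose from a low level (0.389 to 0.851 TPM in wild-type hearts, 2.55 to 3.18 TPM in A25, A30 and A31). Of the regulators, Ppargc1a, a coactivator of mitochondrial genes, had 10.4, 21.3, 17.3 and 9.92 TPM in A25, A29, A30 and A31 against 18.6 to 47.9 TPM, and fell without A29 (-1.18, SE 0.32, adjusted p = 0.0157). Ppara and Esrrg fell with it, and Nrf1, a transcription factor for nuclear genes of mitochondria, rose (0.73, SE 0.21, adjusted p = 0.0194), as did 34.8% of all tested genes. With all hearts, A29 included, 1 of the 7 regulators was apart, Tfam, in the higher direction (445 of 11981 tested genes). It had 27.8 to 30.9 TPM against 20.3 to 24.6 TPM in wild-type hearts (0.37, SE 0.17, limma adjusted p = 0.205).

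In scWAT the 9 transcripts showed no call in either direction (0 of 9, where of 13682 tested genes 0.0146% were called higher and 0.00731% lower). An unadjusted p under 0.05 was found for 0 of 9 in either direction. Of all tested genes, 1029 (7.52%) had one in the lower direction and 1109 in the higher. Log2 fold changes ran from -0.23 (Cs) to 0.17 (Suclg1), with a median of -0.05 against 0.03 for all tested genes, and 5 of 9 were negative (46.1% of all tested genes). For 0 of 9 did the groups lie apart (5.06% of all tested genes were apart in the lower direction and 5.23% in the higher). The widest 95% interval was that of Cs (-0.71 to 0.25) and the narrowest that of Idh3g (-0.24 to 0.35). Cs had 401, 445, 267, 256 and 272 TPM in wild-type A5, A7, A8, A12 and A14 and 276, 265 and 275 TPM in A24, A26 and A30. A5 and A7 stood above all other scWAT libraries. Ogdh ranged from 165 to 209 TPM in wild-type and from 161 to 197 TPM in labelled knockout, and Mdh2 from 338 to 470 TPM and from 371 to 405 TPM.

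Idh3a had 289, 289, 201, 213 and 243 TPM in wild-type scWAT and 187, 208 and 249 TPM in scWAT labelled knockout, with A5 and A7 again highest (log2 fold change -0.20, SE 0.17). Suclg1, with 130 to 176 TPM and 160 to 179 TPM, was the member with the highest positive fold change (0.17, SE 0.14, adjusted p = 0.552). In these libraries the 10 skeletal muscle genes summed to 57.3 to 990 TPM in wild-type and to 368, 4701 and 9428 TPM in A26, A24 and A30. The 6 thermogenic adipocyte genes summed to 138 to 570 TPM against 461 to 970 TPM, and the 8 lymphocyte genes to 611 TPM in A26 against at most 24.5 TPM in any other scWAT library. No marker of these 3 lists was at 0 in every library of a group, and their part in the values was not tested. With the means of the muscle and lymphocyte lists as covariates 0 of 9 passed, and 0 of 9 passed, with a median of 0.08, over the 5 scWAT libraries named without a genotype code (3 wild-type and 2 labelled knockout). The shares of all tested genes called in these 2 fits are not given here. Calls were already rare with all scWAT libraries (0.0146% higher and 0.00731% lower), so these counts say little about the 9 genes.

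Among the other cycle genes, 0 of 9 tested were called in scWAT. Dlst had 129, 140, 120, 109 and 118 TPM in wild-type and 72.9, 79.4 and 77.4 TPM in A24, A26 and A30. The Dlst groups did not overlap, and its log2 fold change was -0.68 (SE 0.12, adjusted p = 0.192). Sdhb, the iron-sulfur subunit of succinate dehydrogenase, was apart in the other direction, with 258 to 300 TPM and 315 to 357 TPM (0.26, SE 0.12, adjusted p = 0.344). Of all tested genes, 5.06% were apart in the lower direction and 5.23% in the higher. Around the cycle in scWAT, 0 of 13 genes of pyruvate entry, 0 of 10 of the cytosolic and export list, 0 of 4 assembly factors and 0 of 7 regulators passed. Calls were rare in that fit, at 0.0146% of all tested genes higher and 0.00731% lower. Got1 stood at 6.20 to 11.0 TPM in wild-type and 17.0 to 17.8 TPM in scWAT labelled knockout without passing (0.96, SE 0.18, adjusted p = 0.198). Mpc1, a subunit of the mitochondrial pyruvate carrier, had 435 to 608 TPM and 407 to 446 TPM (-0.30, SE 0.15, adjusted p = 0.349).

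Whether the genotype difference itself differed between heart and scWAT was tested with an interaction term over all 16 libraries. For 0 of 9 genes did it pass (of 11536 tested genes, 0.00867% were called higher and 0.052% lower), and 8 of 9 estimates were negative (32.6% of all tested genes). Before adjustment 1 of 9, Ogdh, had a p under 0.05 as lower (3.42% of all tested genes). Ogdh had the largest estimate at -1.09 on the log2 scale (SE 0.46, adjusted p = 0.194), then Suclg1 at -0.50 (SE 0.25, adjusted p = 0.268) and Cs at -0.46 (SE 0.38, adjusted p = 0.519). Without A29, Ogdh (-1.34, SE 0.43, adjusted p = 0.0323) and Suclg1 (-0.65, SE 0.20, adjusted p = 0.0264) passed as lower (2.27% of all tested genes did). With array weights the interaction term passed as negative for 7 of 9 genes (15.6% of all tested genes).

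Ratios of 2 transcripts in 1 library do not depend on how that library was scaled. In total 8 ratios were compared in 3 contrasts, and 0 of 24 passed the Benjamini-Hochberg adjustment, with 9 of 24 below 0.05 before it. Between labels, the smallest p that the exact permutation test could give was 0.0286 in heart and 0.0179 in scWAT. At those values a ratio cannot pass an adjustment over 24 tests unless many others also have a low p. Between wild-type tissues, Sucla2 per Suclg1 was 1.54 in heart and 1.10 in scWAT (geometric means), and Ogdh per Dlst 2.50 and 1.58. Idh3g per Idh3b went the other way, 0.856 in heart and 1.11 in scWAT. In these 3 ratios the tissues did not overlap (2-sided exact permutation test over 4 and 5 libraries, p = 0.00794 for each, the smallest it can give, adjusted p = 0.0635). The mouse as a block left the same direction in 4 of 4 mice for each of them (exact sign-flip test, p = 0.125, the smallest possible).

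Between genotype labels in heart, Cs per Mdh2 was 0.440, 0.548, 0.499 and 0.440 in A25, A29, A30 and A31 and 0.556, 0.640, 0.616 and 0.620 in A5, A7, A8 and A14. All 4 hearts labelled knockout, A29 included, were below all 4 wild-type hearts (log2 difference -0.34, exact permutation p = 0.0286, the smallest possible, adjusted p = 0.0952). The 2 transcripts differ in length (2926 bases for Cs, 1456 for Mdh2), and the part of length in this ratio was not tested. Ogdh per Dlst did not separate the labels in heart, with 1.60 to 3.44 against 1.87 to 2.77. In scWAT, Ogdh per Dlst was 2.42, 2.03 and 2.55 in A24, A26 and A30 and 1.28 to 1.74 in the wild-type libraries, without overlap (log2 difference 0.56, exact permutation p = 0.0179, the smallest possible, adjusted p = 0.0857). Sucla2 per Suclg1 was also apart in scWAT, at 0.873 to 0.980 against 0.984 to 1.20 (exact permutation p = 0.0357, adjusted p = 0.0952). No ratio of succinyl-CoA synthetase or isocitrate dehydrogenase subunits separated the labels in heart.

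**Figure D5:**
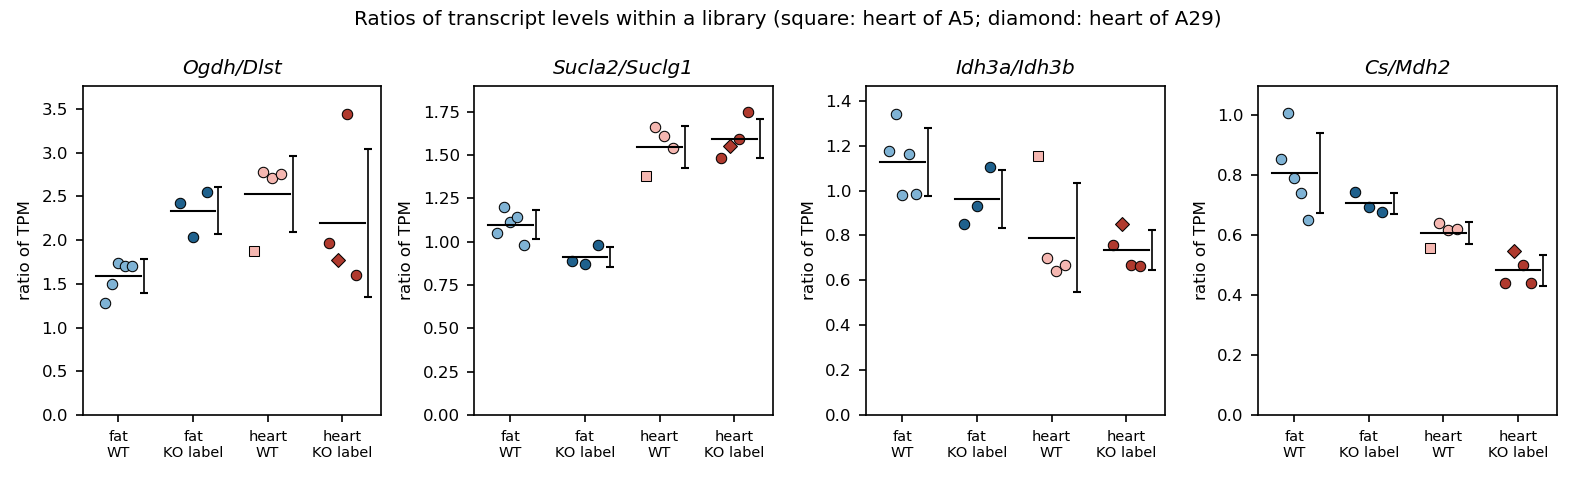
Ratio of 2 transcript levels (TPM over TPM, vertical axes from 0) in each library for 4 pairs, by tissue and label; points are mice, lines are means of the plotted ratios and error bars 1 SD. Sucla2 per Suclg1 separates the tissues, Ogdh per Dlst separates the fat groups, and Cs per Mdh2 separates the heart groups.

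Over the 8 hearts, each gene's log2(TPM + 1) correlated with the mean of the other 8 genes at r = 0.73 (Fh1) to 0.97 (Cs), a description over libraries that share their scaling and their groups. Their spread differed, with an SD of 0.91 for Ogdh and 0.58 for Cs on the log2 scale, and 0.19 for Fh1. Over the 8 scWAT libraries, Mdh2 followed the others most closely (r = 0.99) and Ogdh did not follow them (r = -0.14). Predicted genes (Gm, Rik and AC symbols) were left out of the search for genes of like pattern. Of the other genes outside the 9, those most like the mean of the 9 over the 8 hearts were Suclg2, Ivd, Lrpprc, Phyh and Sdha (Pearson r = 0.990 to 0.993). In scWAT they were Eif2ak4, Tpcn2, Acsl1, Tmem70 and Plin2 (r = 0.935 to 0.962, 8 libraries).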

How the data were processed

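RNA of scWAT and left ventricle was extracted with Trizol and made into TruSeq libraries, per the labels' protocols. The authors deposited 1 table of TPM per gene symbol for each of 16 libraries, per the file headers. Aligner, quantifier and build were not given in the sources used here. TPM keeps no depth, so no counting interval is given. Groups came from the labels, and each library of a group is a different mouse. The 11 mice included 5 that gave both tissues.

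On log2(TPM + 1), with a pseudocount of 1, which understates changes of low genes, 2-sided tests were made with limma 3.58.1 (lmFit, eBayes with a trend, R 4.3.3) for genes averaging 1 TPM or more, with Benjamini-Hochberg adjustment over all tested genes and a threshold of 0.05. Each tissue was fitted alone, wild-type heart was compared with wild-type scWAT, and an interaction term used all libraries. Log2 ratios were compared with exact permutation tests in SciPy 1.17.1 (Python 3.11.15). The fits were tested on simulated data. Alternatives are given in the closing section.

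The genes, lists and tests were chosen with earlier results of these data known. All 9 members and the other cycle genes could be named, with up to 4 genes of smallest p from each further list and the 5 genes of most similar pattern per tissue; Acly, Me1 and Slc25a1 in the closing section were named after their values were seen. Wild-type heart and scWAT libraries were paired by mouse, and same-mouse deviations from the group means correlated at r = 0.03 to 0.15 over 11536 genes. The hearts of A5 and A7 correlated better with another mouse's scWAT (r = 0.082 against 0.070, and 0.040 against 0.028). Those of A8 and A14 correlated best with their own. Promoter windows are from RefSeq (GRCm38.p6) and transcript lengths from GENCODE vM21. Of the 10 other cycle genes, 1 is counted but not reported here.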

Additional observations from a re-analysis of the deposited data

Results flagged for a closer look

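Of 81 groups of libraries checked for a sample far from the others, 14 held one by Dixon's criterion, where chance alone gives about 1 in 20; the groups share libraries. Heart A5 was the lowest wild-type heart for 6 of the 9 genes by this criterion: Cs at 248 TPM (others 435 to 471), Idh3a at 209 TPM (234 to 238), Idh3b at 181 TPM (340 to 366), Ogdh at 297 TPM (568 to 589), Sucla2 at 216 TPM (315 to 328) and Fh1 at 147 TPM (203 to 205). Dlst was low there too, at 158 TPM (206 to 213). Heart A29 was the highest heart labelled knockout for Idh3a at 269 TPM (others 170 to 186), Suclg1 at 208 TPM (130 to 139) and Ogdhl at 22.6 TPM (1.00 to 3.43). In wild-type scWAT, Sdha was low in A12 at 265 TPM (others 304 to 317). Among the ratios, Idh3a per Idh3b was high in heart A5 at 1.15 (others 0.640 to 0.700), Ogdh per Dlst was low in heart A5 at 1.87 (2.71 to 2.77), and Idh3g per Idh3b was low in heart A30 at 0.769 (0.817 to 0.826).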

How the results depend on the processing

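Fold changes are log2, labelled knockout minus wild-type unless said. In heart, the median of the 9 genes moved from -0.29 to -0.61 (median-of-ratios scaling), -0.69 (quantile normalization), -0.72 (length and GC correction) and -0.94 (median-of-ratios without A29). These settings also level the typical gene between libraries. As deposited, the median of all tested genes was 0.26, and relative to it the 9 genes had -0.54. With median-of-ratios without A29 the all-gene median was -0.042. The number passing, 0, became 9 with array weights and with median-of-ratios without A29 (22.7% and 20.8% of all tested genes were lower). It was 1 in a shared fit of all groups (Ogdh), for which the share of all tested genes is not given here. Leaving out 1 library gave 0 to 4, the 4 without A29 (4.16% of all tested genes fell). Fh1 ranged from -0.14 to 0.02 when 1 library was left out, and was above 0 without A7, A8, A14, A25 or A30 (0.018, 0.012, 0.017, 0.010 and 0.012). In scWAT the number stayed 0 in every setting, where the main fit called 0.0146% of all tested genes higher and 0.00731% lower. The shares in the other scWAT settings are not given here. Signs of scWAT fold changes near 0 turned: Idh3b -0.000892 (median-of-ratios), -0.0682 (length and GC) and -0.031 to 0.076 (1 library left out), Idh3g -0.0718 (length and GC), Sucla2 0.00975 (quantile) and 0.0228 (5 libraries without a genotype code), and Mdh2 0.0381, 0.0767 and -0.11 to 0.0067 in the same settings. For heart against scWAT of wild-type mice, the number called rose from 4 to 9 with median-of-ratios, quantile and no mitochondrially encoded genes. Of all tested genes, 33.1%, 32.1% and 20% were then called higher, against 8.12% as deposited. The medians of the 9 genes were 1.90, 1.67 and 1.46 against 0.45, and Idh3a turned to 1.36, 1.17 and 0.91. The number was 7 with array weights and 4 to 7 when 1 library was left out, the 7 without heart A5. For array weights and for the fit without heart A5 the share of all tested genes is not given here. Idh3g was -0.020 to 0.24 when 1 library was left out, below 0 without heart A8. With the mouse as a replicate block 3 genes passed (Ogdh 1.32), since Fh1 was lost, and the block changed no other call. For the interaction, 7 passed with array weights (15.6% of all tested genes were lower) and 0 to 2 when 1 library was left out. The 2 were without heart A29 (2.27% of all tested genes were lower). The median was -0.74 after quantile normalization. Idh3a, at 0.00 in the fit of all libraries, turned to -0.28 (median-of-ratios), -0.45 (quantile), -0.22 (no mitochondrially encoded genes) and -0.14 (array weights). It was -0.14 to 0.11 when 1 library was left out. The log2 ratios that changed sign when 1 library was left out were all near 0: Idh3a per Idh3b (-0.15 to 0.13) and Sucla2 per Suclg1 (-0.010 to 0.080) in heart, Idh3g per Idh3b (-0.0078 to 0.074) and Suclg2 per Suclg1 (-0.12 to 0.11) in scWAT, and Suclg2 per Suclg1 between tissues (-0.11 to 0.12). The cause of these changes was not tested. No depth is known, so precision rests on the 3 to 5 mice per group.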

Other observations

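In wild-type scWAT, the 2 mice with the highest Cs, A5 and A7 (401 and 445 TPM, others 256 to 272), also stood apart for genes of citrate export and use. Acly, which splits citrate in the cytosol to acetyl-CoA, had 689 and 459 TPM in A5 and A7 and 58.9 to 83.6 TPM in the other 3 wild-type libraries. Slc25a1, the citrate carrier, had 784 and 751 TPM against 302 to 367 TPM, and the NADP-linked malic enzyme Me1 1016 and 776 TPM against 226 to 286 TPM. Ogdh did not share this, with its lowest and its highest wild-type scWAT value (165 and 209 TPM) in the same 2 mice. In the hearts of the same mice, Cs was lowest in A5 (248 TPM) and within the range of the other wild-type hearts in A7 (441 TPM). These values were seen first and are given without a test.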
